A study of Mus musculus with 6 samples.

Results

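The integrated stress response and the unfolded protein response were followed through 10 genes: Atf4, Ddit3, Chac1, Sesn2, Trib3, Asns, Psat1, Phgdh, Hspa5 and Xbp1. They were found by gene symbol among the 45513 Ensembl identifiers of the deposited count table, and all 10 matched 1 identifier each. Of the identifiers, 15513 had enough reads to be tested, the 10 genes among them. The measurements were RNA-seq gene counts from keratinocytes isolated from mouse skin, with 3 knockout and 3 control mice on a C57BL/6 background. Knockout mice were Lama3flox/flox with K14-CreERT, a Cre recombinase driven by the keratin 14 promoter that works only in the presence of tamoxifen. Control mice were described in the design text as Lama3wt/flox with the same K14-CreERT, while their genotype label reads wild type. Cre was switched on through chow holding 400 mg of tamoxifen citrate per kg. The floxed stretch covers exons 50 to 53 of Lama3, the gene for the alpha chain of laminin 332. Keratin 14 marks basal keratinocytes. Cells that arise from them can carry the deletion too, and cells of other origin, such as immune cells, are not targeted. Age, sex and time on the chow were not given in the labels used here.

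Both responses are ways in which a cell slows protein synthesis and remakes its supplies. In the integrated stress response, kinases that sense amino acid lack, heme lack, viral RNA or misfolded protein phosphorylate the translation factor eIF2α, general translation drops, and the mRNA of the transcription factor ATF4 is translated more. ATF4 then switches on genes for amino acid synthesis and uptake, tRNA charging, and feedback or cell death. In the unfolded protein response, the sensors PERK, IRE1 and ATF6 read protein folding in the endoplasmic reticulum (ER), and PERK feeds into the same eIF2α step. IRE1 splices the Xbp1 mRNA to give an active factor, and ATF6 and XBP1 raise chaperones and the machinery that removes misfolded protein. Much of this control acts on translation, splicing and cleavage of proteins, which gene counts do not show.

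Total counts per library lay between 20126395 and 28473479. Levels are given as CPM (counts scaled to library size with edgeR's TMM factors) and, where genes are compared with each other, as RPKM (CPM per kilobase of annotated exon). Fold changes are log2 of knockout over control. A gene is said to have risen or fallen where edgeR's quasi-likelihood test gave a Benjamini-Hochberg adjusted p under 0.05 over all genes tested. Lama3 measured 97.3, 98.9 and 79.2 CPM in knockouts 1, 2 and 3, against 141, 142 and 114 CPM in controls 1, 2 and 3, and these counts include exons outside the deletion. It fell by 0.53 on the log2 scale (SE 0.14, adjusted p = 0.0215). The adjusted p was 0.0551 without knockout 1, 0.0620 without control 1, 0.0584 without control 2 and 0.0769 without knockout 1 and control 3 together. Xist and Y-linked counts showed knockouts 1 and 2 and control 1 to be female, and knockout 3 and controls 2 and 3 to be male. Mitochondrial genes took 2.53% to 4.32% of the counts in knockouts and 4.87% to 9.96% in controls. Basal keratinocyte markers summed to 16098 to 21886 CPM in knockouts and 16928 to 23325 CPM in controls, with none of the 8 at 0. Of these 8, 2 rose (Itgb4 and Dst) and 1 fell (Krt15). Suprabasal markers summed to 30399 to 46088 CPM in knockouts and 14712 to 17230 CPM in controls. Of the markers of other cells, 9 of 11 tested genes of the hair shaft and inner root sheath fell, 10 of 11 of T cells, 6 of 8 of melanocytes, 5 of 9 of sebaceous glands and 3 of 9 of fibroblasts. On the list of Langerhans cells and macrophages 3 of 12 rose (C1qa, C1qb and C1qc) and 2 fell (Cd207 and Ptprc), and on the muscle list Acta2 rose (3.49, SE 0.29) while Des and Myh11 were near 0. In bulk samples such as these, fewer cells of a type and less RNA per cell cannot be told apart. All 3 tested neutrophil-list genes, S100a8, S100a9 and Cxcr2, rose, while Ly6g, Elane and Retnlg were at 0 in every library. Knockout 1 and control 3 stood apart in immediate early genes, which respond within minutes to handling of cells. The summed level of 10 such genes was 6537, 15693 and 14299 CPM in knockouts 1, 2 and 3, against 18746, 15696 and 8342 CPM in controls 1, 2 and 3.

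The 10 genes did not move as a block. Chac1, Trib3, Sesn2 and Xbp1 rose in the knockouts, Psat1 and Phgdh fell, and Atf4, Ddit3, Asns and Hspa5 were not called. That makes 4 of 10 that rose, where 17.4% of all genes tested rose, and 2 of 10 that fell, where 18.8% of all genes fell. All knockout libraries lay above all controls for 5 of the 10, against 25.2% of all genes, and below all controls for 3, against 26.5% of all genes. With so many genes changed, the counts of members are near the background for falls and rest on few genes for rises. For each of the 6 called genes the knockouts and controls did not overlap, and so lay on the same sides within the females and within the males. Upper-quartile scaling moved the median log2 fold change of all genes by -0.15, and DESeq2 size factors moved it by 0.01. All 6 called members kept their call under both.

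**Figure D1:**
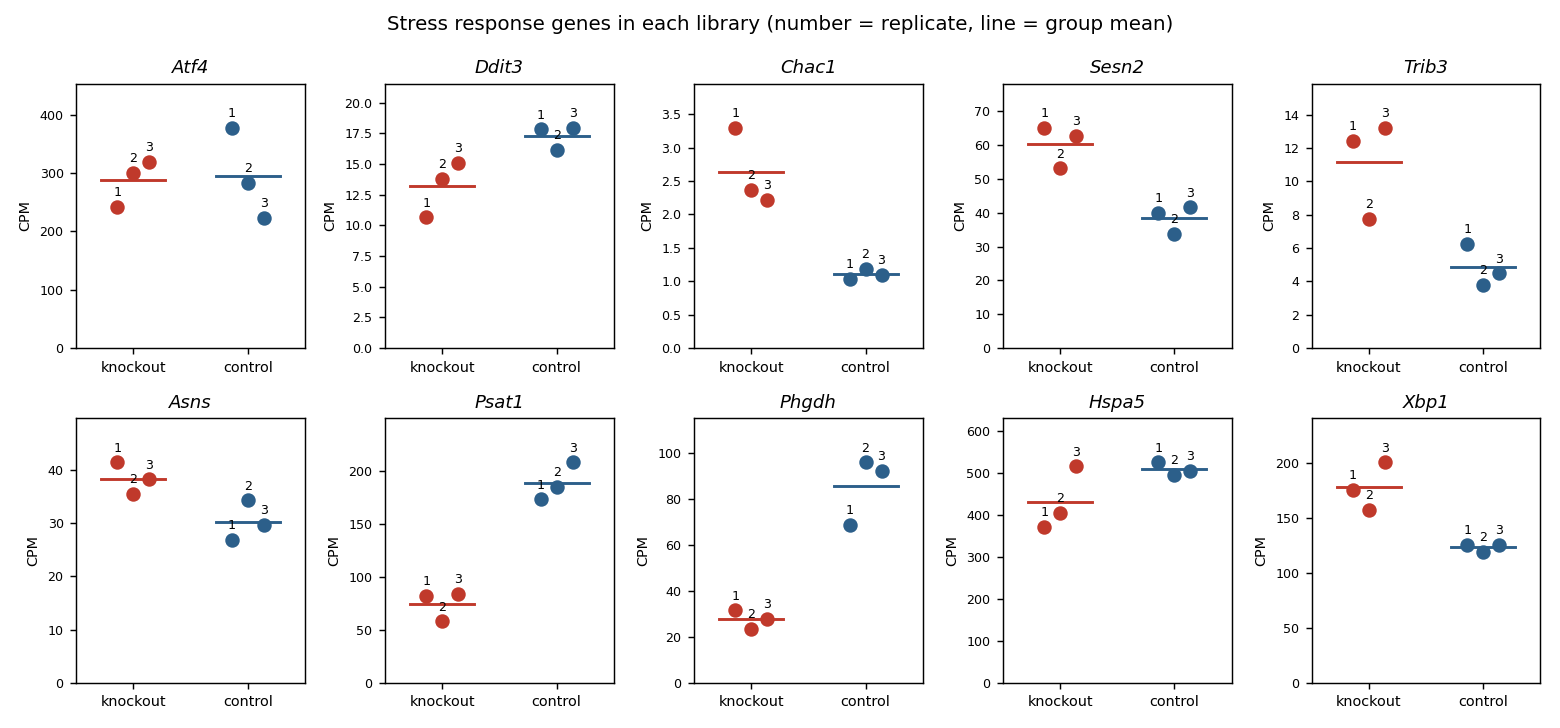
Level of each of the 10 genes in CPM (y axis, linear from 0) in each knockout (left, red) and control (right, blue) library, where the number beside a point is the replicate and the line is the mean of 3 mice. Psat1 and Phgdh show the widest gap, with all knockouts below all controls, while the knockout and control points of Atf4 interleave.

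**Figure D2:**
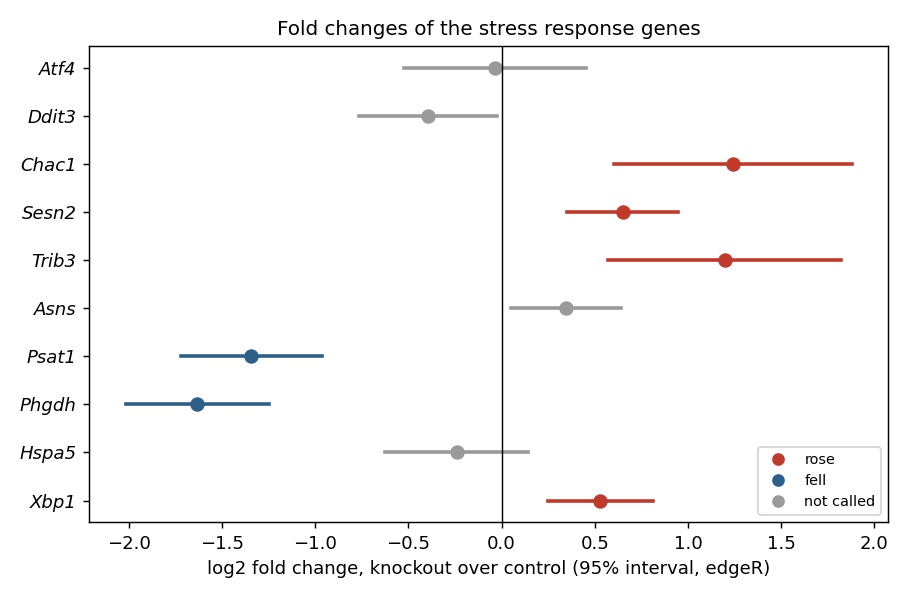
Log2 fold change of knockout over control (x axis) for the 10 genes, with 95% intervals from edgeR's quasi-likelihood fit. Red genes rose, blue genes fell and grey genes were not called. Chac1 and Trib3 lie above 1 and Psat1 and Phgdh below -1.

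Per kilobase of exon, Atf4 and Hspa5 were the most abundant of the 10 in both groups and Chac1 and Trib3 the least. Atf4 stood at 122 ± 17.1 RPKM in knockouts and 125 ± 33.2 RPKM in controls (SD, n = 3 each), and Hspa5 at 102 ± 17.8 RPKM in knockouts and 120.4 ± 3.47 RPKM in controls. These neighbours did not differ beyond their spread. Xbp1 came next in knockouts, at 54.8 ± 6.67 RPKM, against 38.0 ± 1.15 RPKM in controls. Psat1 held 17.5 ± 3.38 RPKM in knockouts and 44.4 ± 4.17 RPKM in controls. In knockouts it could not be told from Sesn2 at 17.4 ± 1.84 RPKM, while in controls it stood well above Sesn2 at 11.1 ± 1.2 RPKM. Phgdh measured 11.1 ± 1.59 RPKM in knockouts and 34.4 ± 5.91 RPKM in controls. Asns, the other synthesis enzyme, measured 14.0 ± 1.07 RPKM in knockouts and 11.1 ± 1.38 RPKM in controls. The order of Phgdh and Asns was thus the reverse in the knockouts of that in the controls.

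Atf4 (ENSMUSG00000042406, GRCm38 chromosome 15, 80255184 to 80257541, plus strand) encodes the factor at the centre of the integrated stress response. Its mRNA measured 242, 301 and 319 CPM in knockouts 1, 2 and 3, against 378, 283 and 223 CPM in controls 1, 2 and 3. The groups overlapped fully, with a control as both the highest and the lowest library. Its log2 fold change was -0.03 (SE 0.21, 95% interval -0.52 to 0.46, adjusted p = 0.912), and its sign was positive in 3 of 16 alternatives, none of which called it. Knockout 1 and control 3, the lowest library of each group, were also the lowest in all 10 immediate early genes. Whether these genes and the Atf4 mRNA are linked was not tested.

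Ddit3 (ENSMUSG00000025408, chromosome 10, 127290774 to 127296288, plus strand) encodes CHOP, a factor induced by ATF4 that favours cell death under lasting ER stress. It measured 10.7, 13.8 and 15.1 CPM in knockouts 1, 2 and 3, against 17.8, 16.2 and 18.0 CPM in controls 1, 2 and 3. Every knockout lay below every control, by a margin smaller than the spread among knockouts. The log2 fold change of -0.39 (SE 0.16) was not called (adjusted p = 0.0882). Upper-quartile factors gave an adjusted p of 0.0373, within a range of 0.0373 to 0.625 over 16 alternatives, and offsets for transcript length and GC content turned the value to 0.10. Ddit3 overlaps Mars on the opposite strand by 68 bases and Gm4189 by 15 bases, and the use of strand in counting was not given in the sources used here.

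Chac1 (ENSMUSG00000027313, chromosome 2, 119351229 to 119354381, plus strand) encodes an enzyme that breaks down glutathione and is a target of ATF4, ATF3 and CHOP. It gave 78, 68 and 61 reads in knockouts 1, 2 and 3, against 24, 25 and 28 reads in controls 1, 2 and 3. In CPM these were 3.30, 2.37 and 2.21 in knockouts, against 1.03, 1.19 and 1.10 in controls. The knockouts did not overlap the controls, and the fold was 2.36 (log2 fold change 1.24, SE 0.28, adjusted p = 0.0129). It rose while Ddit3 did not, so the ratio of Chac1 to Ddit3 RPKM was 0.324, 0.180 and 0.153 in knockouts 1, 2 and 3, against 0.0607, 0.0772 and 0.0641 in controls 1, 2 and 3.

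Trib3 (ENSMUSG00000032715, chromosome 2, 152337422 to 152344032, minus strand) encodes a pseudokinase that ATF4 and CHOP induce and that restrains both ATF4 and AKT. It measured 12.4, 7.75 and 13.2 CPM in knockouts 1, 2 and 3, against 6.24, 3.81 and 4.48 CPM in controls 1, 2 and 3. Knockout 2 stood nearest the controls. The fold was 2.29 (log2 fold change 1.2, SE 0.27, adjusted p = 0.0134). Relative to Atf4 RPKM, Trib3 averaged 0.0438 ± 0.0143 in knockouts and 0.0185 ± 0.00369 in controls (SD, n = 3 each). The ratio of Sesn2 to Atf4 was 0.145 ± 0.0329 in knockouts and 0.0931 ± 0.0294 in controls. That of Asns to Atf4 was 0.117 ± 0.0258 in knockouts and 0.0935 ± 0.0285 in controls. Both of these ratios overlapped between the groups.

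Sesn2 (ENSMUSG00000028893, chromosome 4, 132492032 to 132510501, minus strand) encodes sestrin 2, a leucine sensor that holds back mTORC1 and is induced by ATF4, p53 and NRF2. It measured 65.1, 53.1 and 62.8 CPM in knockouts 1, 2 and 3, against 40.0, 33.7 and 41.5 CPM in controls 1, 2 and 3. The lowest knockout, knockout 2, stood above the highest control. The fold was 1.57 (log2 fold change 0.65, SE 0.13, adjusted p = 0.00855). With offsets for transcript length and GC content it was 0.41 and no longer called (adjusted p = 0.0728), where 16 alternatives ranged from 0.000176 to 0.0778.

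When knockout 1 and control 3 were left out together, leaving 2 mice a group, none of the members was called higher. The estimates were then 1.04 for Chac1, 1.06 for Trib3, 0.65 for Sesn2 and 0.55 for Xbp1, with adjusted p of 0.120, 0.124, 0.0778 and 0.121. Psat1 and Phgdh remained called (adjusted p = 0.0290 and 0.0192). In this smaller fit 482 genes rose and 559 fell in all, against 2693 and 2919 with 3 mice a group. Of the genes called on the other lists, Tnfrsf10b, Psph, Slc7a11 and Hars kept their call in it. No single library decided a call among the members that rose or fell.

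The promoters of Chac1 and Asns are shown because they hold the core of the element that ATF4 binds with C/EBP partners, TGATGNAA, within the bases before the start site. Each is given 5′ to 3′ for its gene's strand, from RefSeq on GRCm38.p6, with the matched letters in capitals.

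Chac1, chr2:119350992-119351241, plus strand: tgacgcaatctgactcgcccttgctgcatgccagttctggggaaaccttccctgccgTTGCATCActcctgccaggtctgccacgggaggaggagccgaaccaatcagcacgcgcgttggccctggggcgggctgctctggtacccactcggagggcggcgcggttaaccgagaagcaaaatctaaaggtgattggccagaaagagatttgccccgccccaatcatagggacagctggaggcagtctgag
Asns, chr6:7693210-7693459, minus strand: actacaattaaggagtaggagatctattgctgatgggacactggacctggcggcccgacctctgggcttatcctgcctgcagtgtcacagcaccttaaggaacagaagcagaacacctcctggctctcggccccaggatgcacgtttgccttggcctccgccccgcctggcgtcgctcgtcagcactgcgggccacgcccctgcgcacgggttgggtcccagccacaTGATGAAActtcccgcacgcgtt

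The match in Chac1 lies on the opposite strand, 193 to 186 bases before the start site, and that in Asns on the gene's strand, 23 to 16 bases before it. In Trib3 a match on the opposite strand, TTACATCA, lies 15 to 22 bases into the transcribed part. The search covered 250 bases before and 50 after the start site on both strands. It found the core in these 3 members and in 3.97% of 32851 promoters of the same length. By gene, 5 of the 14 regulatory ATF4 targets with a promoter in the table held it (Atf3, Nupr1, Fgf21, Vldlr and Jdp2), as did 5 of 12 tRNA synthetase genes (Aars, Gars, Iars, Tars and Yars), 2 of 8 transporters (Slc7a11 and Slc1a4), 3 of 15 amino acid enzymes (Pycr1, Pck2 and Got1) and 0 of 10 kinase and sensor genes. On the remaining lists 1 of 18 ER chaperones and folding enzymes (Txndc5), 1 of 25 XBP1 list genes (Herpud1) and 0 of 17 heat shock and immediate early genes held it. Of all these list genes Nupr1, Gars and Slc7a11 rose, Fgf21 was not tested, and the others were not called. Among all genes tested 17.4% rose and 18.8% fell. Whether the core goes with a rise was not tested. The other motifs searched were the ER stress element (CCAAT, 9 bases of any kind, CCACG), its second form (ATTGG, 1 base of any kind, CCACG; 0.0365% of promoters) and the XBP1 element TGACGTGG (0.676%). The promoters of Atf4, Ddit3, Sesn2, Psat1, Phgdh and Xbp1 had none of the 4 motifs searched in this window.

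The amino acid enzymes among the members split. Asns (ENSMUSG00000029752, chromosome 6, 7675169 to 7693254, minus strand) encodes asparagine synthetase, a much used readout of ATF4. It measured 41.4, 35.5 and 38.2 CPM in knockouts 1, 2 and 3, against 26.8, 34.3 and 29.6 CPM in controls 1, 2 and 3. The groups did not overlap, though knockout 2 and control 2 lay close together. The log2 fold change was 0.34 (SE 0.13) and was not called (adjusted p = 0.0671). It was called without control 2 (adjusted p = 0.0405) and with offsets for transcript length and GC content (0.0246), within a range of 0.0246 to 0.353 over 16 alternatives.

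Phgdh (ENSMUSG00000053398, chromosome 3, 98313170 to 98339990, minus strand) encodes the enzyme of the first step of serine synthesis from glycolysis. It measured 31.5, 23.6 and 27.9 CPM in knockouts 1, 2 and 3, against 68.7, 95.7 and 92.2 CPM in controls 1, 2 and 3. Every knockout was below the lowest control by more than the spread among knockouts. The level was 3.10-fold lower in the knockouts (log2 fold change -1.63, SE 0.17, adjusted p = 0.00127).

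Psat1 (ENSMUSG00000024640, chromosome 19, 15904678 to 15947337, minus strand) encodes the aminotransferase of the next step. It measured 81.7, 57.9 and 83.9 CPM in knockouts 1, 2 and 3, against 173, 185 and 208 CPM in controls 1, 2 and 3. It was 2.53-fold lower in the knockouts (log2 fold change -1.34, SE 0.16, adjusted p = 0.00192). Psph, the phosphatase that completes serine synthesis and not one of the 10, measured 31.7, 19.0 and 34.0 CPM in knockouts 1, 2 and 3, against 75.0, 69.6 and 82.8 CPM in controls 1, 2 and 3. It fell by 1.43 on the log2 scale (SE 0.21, adjusted p = 0.00369), so the mRNAs for all 3 steps of the route were lower. The falls of Phgdh, Psat1 and Psph were called under all 16 alternatives, with log2 fold changes between -1.78 and -1.52 for Phgdh, -1.49 and -1.18 for Psat1 and -1.58 and -1.2 for Psph.

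Within each library the ratio of Psat1 to Asns RPKM, which does not depend on how libraries are scaled, was 1.27, 1.05 and 1.41 in knockouts 1, 2 and 3, against 4.15, 3.47 and 4.51 in controls 1, 2 and 3. The ratio of Phgdh to Asns was 0.789 ± 0.0545 in knockouts and 3.11 ± 0.302 in controls (SD, n = 3 each). Psat1 and Phgdh kept closer to each other, with a ratio of 1.57 ± 0.167 in knockouts and 1.31 ± 0.172 in controls. Hair shaft and inner root sheath markers moved in the same libraries, at 58.3, 49.8 and 57.1 CPM summed over 12 genes in knockouts 1, 2 and 3, against 121, 383 and 227 CPM in controls 1, 2 and 3. Among the controls, Phgdh had the same order as the hair sum, lowest in control 1 and highest in control 2. Psat1 was also lowest in control 1 but highest in control 3. Psph was lowest in control 2, which had the highest hair sum. Sebaceous gland markers summed to 697 to 1201 CPM in knockouts and 1409 to 1712 CPM in controls. Melanocyte markers summed to 55.5 to 60.6 CPM in knockouts and 87.1 to 226 CPM in controls. Fibroblast markers summed to 572 to 1132 CPM in knockouts and 1247 to 1715 CPM in controls. Among the controls both sums were lowest in control 1 and highest in control 3, like Psat1. T cell markers were also lower in every knockout than in every control, but highest in control 1. The part of any of these cell types in the fall of the serine genes was not tested.

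**Figure D3:**
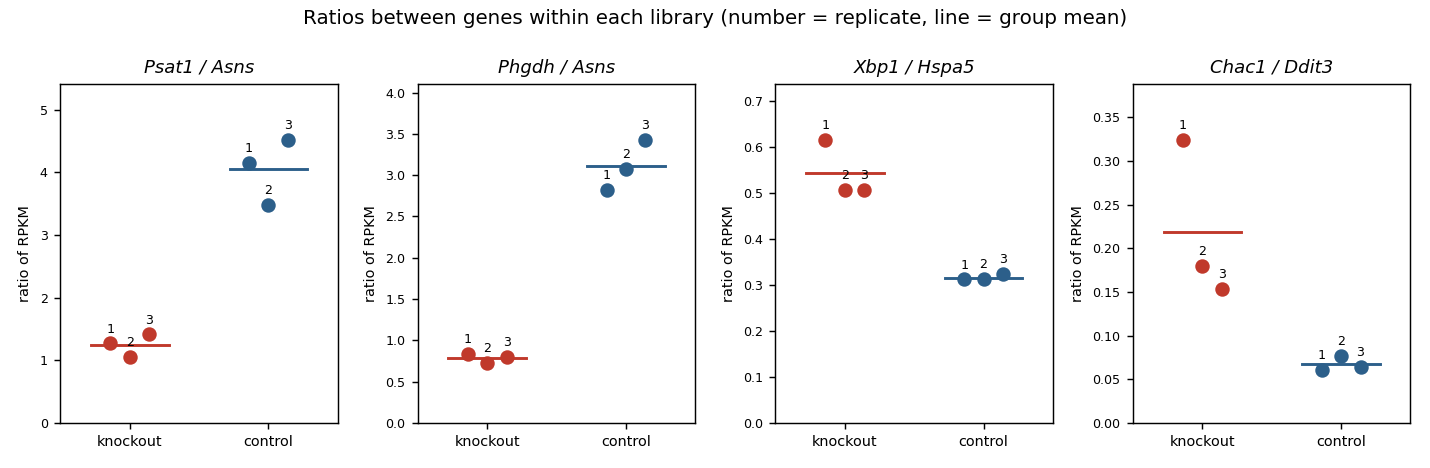
Ratio of RPKM between pairs of genes within a library (y axes, linear from 0), with knockouts in red on the left and controls in blue on the right, replicate numbers beside the points and a line at the mean of 3 mice. In the 4 pairs shown the knockouts and controls do not overlap. The ratios of Psat1 to Phgdh, Sesn2 to Atf4 and Asns to Atf4 are not shown and overlap, while that of Trib3 to Atf4, also not shown, does not. For single genes, all knockouts lay above all controls in 25.2% of those tested and below in 26.5%.

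Hspa5 (ENSMUSG00000026864, chromosome 2, 34771970 to 34777547, plus strand) encodes BiP, the main Hsp70 chaperone of the ER and the classic readout of ER stress. It measured 372, 406 and 516 CPM in knockouts 1, 2 and 3, against 525, 497 and 506 CPM in controls 1, 2 and 3. Knockouts 1 and 2 lay below the controls and knockout 3 among them. The log2 fold change of -0.24 (SE 0.17, 95% interval -0.62 to 0.14) was not called (adjusted p = 0.285), nor was it under any of 16 alternatives. Its promoter is shown because it holds a full ER stress element, CCAAT and CCACG with 9 bases between, to which ATF6 binds together with NF-Y.

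Hspa5, chr2:34771840-34772089, plus strand: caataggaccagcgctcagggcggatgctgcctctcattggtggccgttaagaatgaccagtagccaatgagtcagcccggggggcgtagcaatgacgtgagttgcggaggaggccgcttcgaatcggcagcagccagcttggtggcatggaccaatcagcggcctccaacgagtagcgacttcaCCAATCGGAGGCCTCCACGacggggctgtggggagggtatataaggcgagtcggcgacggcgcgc

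The element lies 65 to 47 bases before the start site. Of all promoters searched, 0.119% held it, and of 18 genes on the list of other ER chaperones and folding enzymes with a known promoter it was found in 6, namely Hsp90b1, Calr, Canx, Dnajc3, Creld2 and Pdia6. None of these 6 rose, Pdia6 fell, and Hsp90b1 fell with a call held in 6 of 16 alternatives. Among all genes tested 17.4% rose and 18.8% fell, and 6 genes are few to set against these shares.

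Xbp1 (ENSMUSG00000020484, chromosome 11, 5520659 to 5525893, plus strand) encodes the factor that IRE1 activates by splicing. Its counts pool the spliced and unspliced forms, so the share of active message was not analysed here. It measured 176, 158 and 201 CPM in knockouts 1, 2 and 3, against 126, 119 and 126 CPM in controls 1, 2 and 3. All knockouts lay above all controls, and the controls differed little among themselves. Xbp1 had a log2 fold change of 0.53 (SE 0.12, adjusted p = 0.0144). The ratio of Xbp1 to Hspa5 RPKM was 0.614, 0.506 and 0.507 in knockouts 1, 2 and 3, against 0.311, 0.312 and 0.323 in controls 1, 2 and 3. Jchain and Igkc, markers of plasma cells, which carry much XBP1, averaged 0.0484 and 0.0358 CPM in knockouts and 0.0290 and 0.0262 CPM in controls. On the plasma and B cell list Prdm1 rose (0.98, SE 0.20, adjusted p = 0.0098), Ighm fell (-1.27, SE 0.33, adjusted p = 0.0220), and Sdc1 was not called. The summed suprabasal markers were higher in every knockout than in every control, with 7 of 10 tested genes that rose and Krtdap, Dsg1a and Tgm3 overlapping between groups. Among knockouts, knockout 3 had the highest Xbp1 and the lowest suprabasal sum, to which Krt1 and Krt10 gave the most. Single suprabasal genes differed in this. Ivl, Tgm1, Krtdap and Flg were highest in knockout 3, like Xbp1. Krt10, Lor, Sbsn, Dsg1a and Grhl3 were lowest in knockout 3, and Krt1 and Tgm3 in knockout 2. The part of suprabasal cells in the rise of Xbp1 was not tested.

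The wider pathway was read from gene lists. Among the eIF2α kinases, their phosphatase subunits and the ER sensors, 5 of 15 tested genes rose (33.3%, against 17.4% of all genes) and none fell (18.8% of all genes did), with a median log2 fold change of 0.23 against -0.02 for all genes tested. At an unadjusted p under 0.05 none was lower either, and DESeq2 called 6 higher and none lower. Ern1, which encodes IRE1, measured 47.6, 49.8 and 50.5 CPM in knockouts 1, 2 and 3, against 25.5, 32.4 and 29.6 CPM in controls 1, 2 and 3 (log2 fold change 0.76, SE 0.12, adjusted p = 0.00412). Eif2ak1, the heme-regulated kinase, rose by 0.67 (SE 0.12) to 55.9 ± 7.17 CPM in knockouts, against 35 ± 1.11 CPM in controls. Eif2ak3, which encodes PERK, rose by 0.51 (SE 0.12), Atf6 by 0.50 (SE 0.12) and Gcn1l1, the partner of the amino acid sensing kinase GCN2, by 0.50 (SE 0.14). Of the other kinases, Eif2ak2 (PKR) stood at -0.04 (SE 0.18) and Eif2ak4 (GCN2) at 0.23 (SE 0.15), neither called. Ppp1r15a, the stress-induced phosphatase subunit GADD34, varied within both groups, at 84.5, 219 and 182 CPM in knockouts 1, 2 and 3, against 197, 167 and 76.2 CPM in controls 1, 2 and 3. The genes that rose have long transcripts, with a median of 6946 bases against 4038 bases for those not called. With offsets for transcript length and GC content 3 rose (Ern1, Eif2ak1 and Eif2ak3), with Gcn1l1 at 0.04. The count was 2 without knockout 1, knockout 2 or control 3, 3 without control 1 and 0 without knockout 1 and control 3 together. Eif2s1, the eIF2α gene itself, at -0.49 (SE 0.22, adjusted p = 0.121), was called lower without knockout 3 (adjusted p = 0.0166) and with the replicate number as a block (0.0279), with a range of 0.0166 to 0.513 over 16 alternatives.

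Partner factors and regulatory targets of ATF4 leaned upward, with 7 of 15 tested genes that rose (46.7%, against 17.4% of all genes), none that fell and a median of 0.50. None was lower at an unadjusted p under 0.05, nor by DESeq2. Tnfrsf10b, the death receptor DR5 that CHOP induces, rose by 0.75 (SE 0.16) to 23.3 ± 2.24 CPM in knockouts, against 13.9 ± 2.37 CPM in controls, and was called under all 16 alternatives. Sqstm1, the autophagy receptor p62 and also an NRF2 target, rose by 0.58 (SE 0.16), and Eif4ebp1, a repressor of cap-dependent translation, by 0.54 (SE 0.15). Their calls held in 11 and 9 of 16 alternatives. Atf3, an ATF4 target that is also an immediate early gene, measured 172, 814 and 683 CPM in knockouts 1, 2 and 3, against 2319, 974 and 446 CPM in controls 1, 2 and 3. That spread left its log2 fold change of -1.16 (SE 0.71) uncalled (adjusted p = 0.230). The secreted stress hormones Fgf21 and Gdf15 had too few reads to test. The count of genes that rose was 2 with upper-quartile factors or without control 1 or control 3, 3 without knockout 1 or knockout 3, and 4 without knockout 2. It was 1 without knockout 1 and control 3 together. Without knockout 2, 1 gene of the list fell, which was not among the 15 tested with all libraries.

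Few other enzymes of amino acid and one-carbon synthesis were called. Of 17 tested, Psph included, 1 rose (5.88%, against 17.4% of all genes) and 2 fell (11.8%, against 18.8%), with a median of 0.07. Shmt2, the mitochondrial enzyme that turns serine into glycine, stood at 0.35 (SE 0.11, adjusted p = 0.0435) and was called in the same way in 7 of 16 alternatives. Oat, ornithine aminotransferase, stood at -0.54 (SE 0.17, adjusted p = 0.0395), with its call held in 9 of 16. No gene rose without knockout 1, knockout 2, knockout 3, control 1 or control 3, and 1 gene fell without knockout 1, knockout 3 or control 2. Both counts were as low, 0 and 1, without knockout 1 and control 3 together.

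Amino acid transporters included the highest fold change among the genes of the pathway lists. Slc7a11, the cystine importer xCT and a target of both ATF4 and NRF2, measured 34.5, 7.02 and 28.5 CPM in knockouts 1, 2 and 3, against 0.603, 1.29 and 1.3 CPM in controls 1, 2 and 3. Every knockout exceeded every control, and knockout 2 was well below the other knockouts. The log2 fold change was 4.45 (SE 0.65, adjusted p = 0.00391), and it was called under all 16 alternatives, between 4.06 and 4.89. The neutrophil list summed to 1014, 154 and 1512 CPM in knockouts 1, 2 and 3, against 7.75, 35.9 and 13.5 CPM in controls 1, 2 and 3. That sum came almost wholly from S100a8, S100a9 and Cxcr2. Of the other 6 genes of the list, Ly6g, Elane and Retnlg were at 0 in every library, and Csf3r, Mpo and Ltf were at or near 0, with a highest value of 0.209 CPM for Mpo in knockout 2. The cell source of the Slc7a11 rise was not tested. Slc3a2, the heavy chain partner of Slc7a11, measured 215 ± 18.7 CPM in knockouts and 133 ± 26.0 CPM in controls (log2 fold change 0.70, SE 0.16). Leaving out knockout 1 ended its call (adjusted p = 0.0511), as did leaving out knockout 1 with control 3 (0.129), over a range of 0.000888 to 0.129. Slc38a2, the neutral amino acid transporter SNAT2, rose by 0.79 (SE 0.16) to 709 ± 46.6 CPM in knockouts, against 409 ± 49.6 CPM in controls, and Slc36a1, a lysosomal and plasma membrane proton-coupled transporter, by 0.65 (SE 0.13). In all 4 of 12 tested transporters rose (33.3%, against 17.4% of all genes) and 1 fell (8.33%, against 18.8%), with a median of 0.47. Slc38a1 was the one that fell (-0.84, SE 0.27, adjusted p = 0.0400), and without knockout 1, knockout 3, control 1 or control 3 none fell. The number that rose was 7 without knockout 3 and 1 without knockout 1 and control 3 together, where none fell. Slc38a1 itself also missed the threshold without knockout 2 (adjusted p = 0.0502).

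Cytosolic tRNA synthetases, of which ATF4 induces some, had a median of 0.28, with 5 of 20 that rose and 1 that fell. Which of these changes depend on ATF4 was not tested. The share that rose was 25.0%, against 17.4% of all genes, and the share that fell was 5%, against 18.8% of all genes. Hars, for histidine, rose by 1.04 (SE 0.14) to 106 ± 12 CPM in knockouts, against 51.5 ± 6.38 CPM in controls, and held in all 16 alternatives. Gars, for glycine, rose by 0.79 (SE 0.13), and Qars, for glutamine, by 0.65 (SE 0.12). Dars, for aspartate, was the one that fell (-0.46, SE 0.13), and stood at -0.13 with offsets for transcript length and GC content. It was not called without knockout 1, knockout 2, control 1 or control 3. Without control 2, 8 synthetases rose. Without knockout 1 and control 3 together, 1 rose and none fell.

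Chaperones and folding enzymes of the ER beside Hspa5 had a median of -0.19, against -0.02 for all genes tested. None of 22 rose, where 17.4% of all genes did. The 5 that fell made 22.7%, near the 18.8% of all genes. At an unadjusted p under 0.05, 1 was higher (Uggt1), and DESeq2 called none higher. Pdia6, a disulfide isomerase, measured 116, 104 and 111 CPM in knockouts 1, 2 and 3, against 155, 177 and 161 CPM in controls 1, 2 and 3 (log2 fold change -0.57, SE 0.11, adjusted p = 0.00743). Manf, a secreted factor induced by ER stress, fell by 0.56 (SE 0.14), and Sdf2l1, a cofactor of BiP, by 0.75 (SE 0.21). Hsp90b1 (GRP94), the Hsp90 of the ER, fell by 0.43 (SE 0.13), with its call held in 6 of 16 alternatives. It was not called without knockout 1, knockout 2, knockout 3, control 2 or control 3. Not called were Calr (calreticulin) at -0.36 (SE 0.18), Canx (calnexin) at 0.27 (SE 0.18) and Hyou1 at 0.21 (SE 0.15). The number that fell was 1 without knockout 1, knockout 2 or control 3, 3 without knockout 3 or control 2, 3 with offsets for transcript length and GC content, 8 with upper-quartile factors and 0 without knockout 1 and control 3 together. Without knockout 3, 1 chaperone rose.

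Genes that XBP1 serves, for degradation and entry of proteins at the ER, were called in both directions. Of 31 tested, 7 rose (22.6%, against 17.4% of all genes) and 6 fell (19.4%, against 18.8%), shares near those of all genes, with a median of 0.15. Those that rose include Edem1 (0.55, SE 0.12) and Edem3 (0.70, SE 0.16), which trim the sugars of misfolded glycoproteins, the coat protein gene Sec23b (0.43, SE 0.10) and Sec63 of the entry machinery (0.45, SE 0.11). Edem1 measured 82.3, 80.9 and 80.1 CPM in knockouts 1, 2 and 3, against 47.6, 57.0 and 61.6 CPM in controls 1, 2 and 3. Those that fell include small subunits of the entry machinery, namely Sec61b of the translocon (-1.0, SE 0.19), Spcs2 of the signal peptidase (-0.52, SE 0.12) and Ssr2 of the translocon-associated complex (-0.47, SE 0.11). Sec61b measured 34.2, 27.1 and 42.4 CPM in knockouts 1, 2 and 3, against 73.1, 57.1 and 77.3 CPM in controls 1, 2 and 3. The number that rose was 3 without knockout 1 or control 1, 4 without knockout 2, 2 without control 3, and 2 with upper-quartile factors. The number that fell was 3 without knockout 1 or control 1 and 2 without knockout 2 or control 3. Neither direction had a call without knockout 1 and control 3 together.

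**Figure D4:**
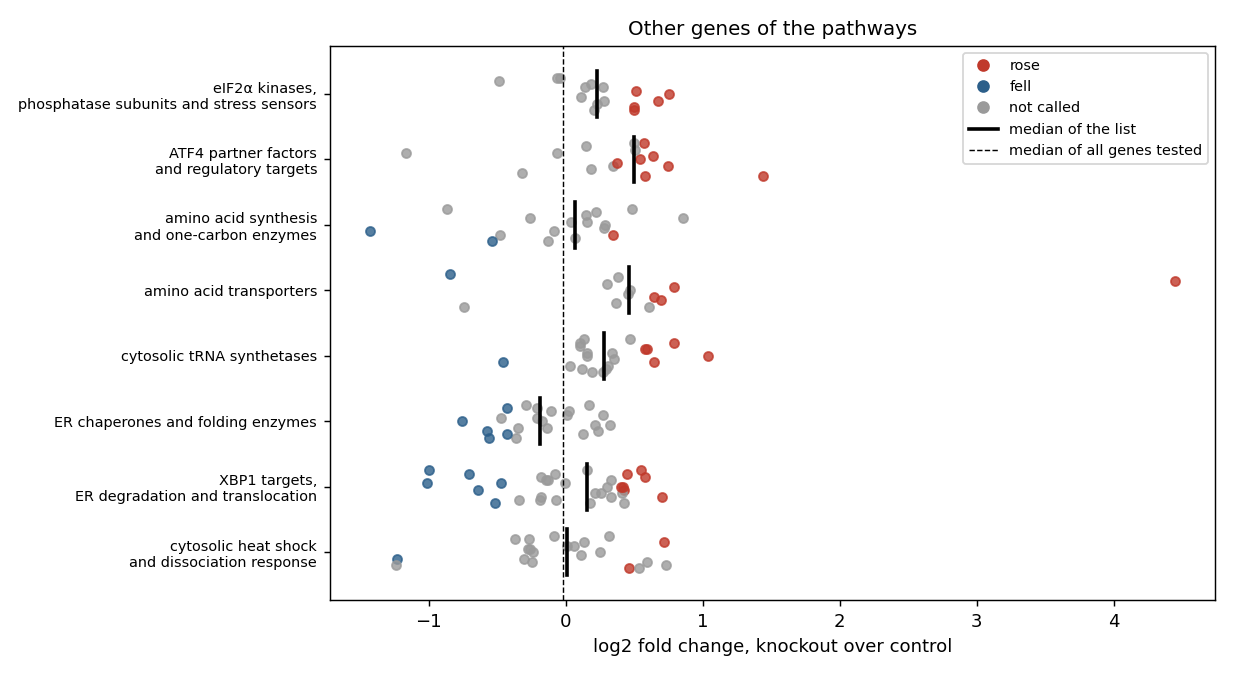
Log2 fold change of knockout over control (x axis) for each tested gene of the 8 other gene lists (rows), coloured by call, with a black bar at each list's median and a dashed line at the median of all genes tested. Medians run from -0.19 for ER chaperones to 0.50 for ATF4 partner factors and targets, and Slc7a11 stands alone at 4.45.

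The direction of these ER genes went with the length of their transcripts. The 7 that rose on the XBP1 list had a median length of 6032 bases, against 1552 bases for the 6 that fell. The same slope ran through the whole table. When the tested genes were cut into 5 groups by length, the median log2 fold change was -0.37 in the group with the shortest transcripts, up to 1623 bases, and 0.23 in that with the longest, from 5009 bases. Across the 99.5% of tested genes with a length, Spearman's rho of fold change and length was 0.286, where genes share libraries and are not independent. Offsets for length and GC content were fitted to these same libraries, so they flatten such a slope by design. They would also take out a true group difference that follows length. With them the medians of the shortest and longest groups were -0.05 and 0.06, and 5 of the XBP1 list rose and 3 fell. Sec61b, Edem1 and Edem3 kept their calls under that fit. Among the members, Sesn2 lost its call and Asns gained one, while Chac1, Trib3, Xbp1, Psat1 and Phgdh kept theirs. The part of RNA quality in this slope was not tested.

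**Figure D5:**
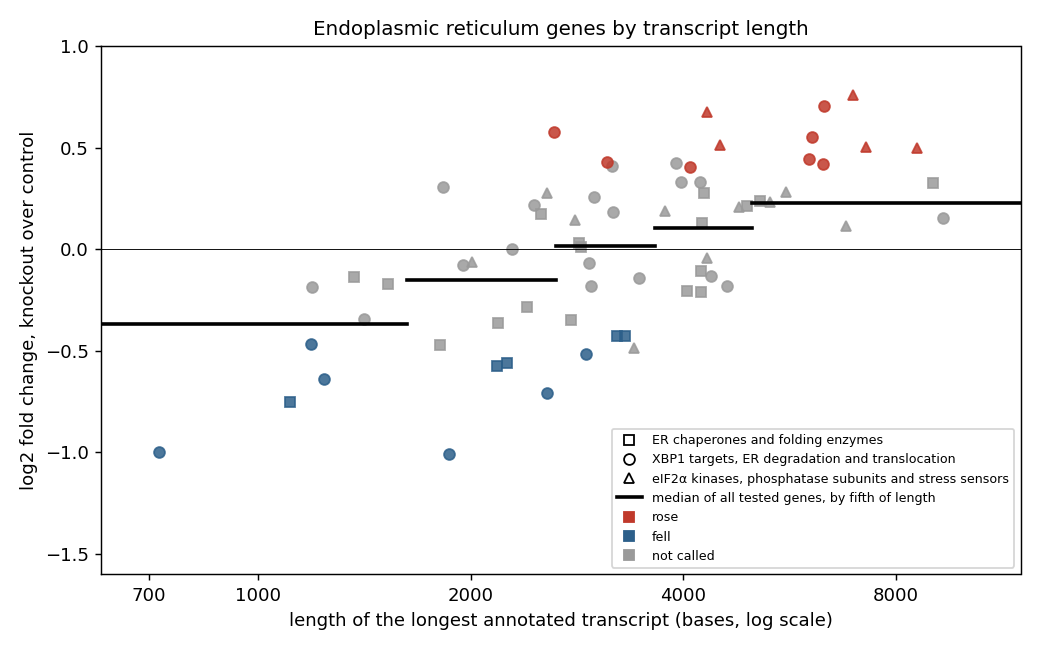
Log2 fold change of knockout over control (y axis) against the length of the longest annotated transcript (x axis, log scale) for the ER chaperone, XBP1 target and sensor lists, coloured by call. Black bars give the median of all tested genes in each of 5 length groups, from -0.37 for the shortest to 0.23 for the longest.

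Heat shock and immediate early genes, listed as signs of cytosolic stress and of cell isolation, had a median of 0.01, with 2 of 21 that rose (9.52%, against 17.4% of all genes) and 1 that fell (4.76%, against 18.8%). Hspa1b, an inducible Hsp70 of the cytosol, rose by 0.72 (SE 0.18), and Bag3, its cochaperone, by 0.46 (SE 0.13). Hspa1b has a near-identical copy in Hspa1a (0.74, SE 0.28, not called), so reads may be divided between them. Hspe1, a mitochondrial chaperonin, fell by 1.23 (SE 0.29). None rose without knockout 1 or control 1, 1 rose without knockout 3 or control 3, and none fell without knockout 1, knockout 2 or control 3. Without knockout 1 and control 3 together none was called, while DESeq2, sex as a covariate and the offsets for length and GC content each gave 4 that rose.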

How the data were processed

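Per the labels, RNA came from isolated keratinocytes of 3 mice a group and was sequenced as paired reads of 100 bases. The deposited values were whole-number counts per Ensembl gene, 1 column per library. The tools named in the submitters' processing notes are Cuffdiff 1.3.0, featureCounts 1.4.6 and TopHat 1.3.3, and the build is GRCm38. Settings, annotation release, strand use and the treatment of multiply mapped reads are not given in the sources used here. Symbols (98.0% of identifiers), positions and exon lengths came from GENCODE M21.

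Counts were fitted with edgeR 4.0.16 (R 4.3.3): TMM factors, filterByExpr by group, robust quasi-likelihood fit, group only, all 6 libraries, Benjamini-Hochberg over 15513 genes. Every adjusted p comes from this test or the named alternative (DESeq2 1.42.0, limma-voom in limma 3.58.1). SEs were derived from the F statistic. The script was tested on simulated data. At these depths a low value's precision is limited by its reads as well as by variation between mice. The p-values set the difference between groups against the variation among libraries within them.

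The members and lists were chosen with earlier results of these data known. Named were all members, any sensor gene, and from each list up to 3 called genes a direction with the smallest p. Atf3, Hsp90b1, Calr, Canx, Hyou1, Sec63, Hspa1a, the motif-bearing genes and single marker genes were named after their values were seen.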

Additional observations from a re-analysis of the deposited data

How the results depend on the processing

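The calls of Chac1, Trib3, Sesn2, Xbp1, Psat1 and Phgdh held under all 14 alternatives planned at the outset. 2 alternatives were chosen after seeing the data, the offsets for transcript length and GC content and the fit leaving out knockout 1 and control 3 together. The cause of the changes below was not tested, except that leaving out mice leaves fewer samples. With each library left out in turn, 1586 to 2754 genes rose and 1714 to 2771 fell. The members gave 4 to 5 that rose and 2 that fell. The ranges were 2 to 5 rises and 0 to 1 falls for kinases and sensors, 2 to 5 and 0 to 1 for ATF4 partners and targets, 0 to 1 and 1 to 2 for amino acid enzymes, 3 to 7 and 0 to 1 for transporters, 4 to 8 and 0 to 1 for tRNA synthetases, 0 to 1 and 1 to 5 for ER chaperones, 2 to 10 and 2 to 6 for the XBP1 list, and 0 to 2 and 0 to 1 for heat shock genes. Leaving out knockout 1 and control 3 together gave 482 genes that rose and 559 that fell, 477 and 527 of them shared with the fit of all libraries. It called 0 members higher. It gave 0 rises of sensors, 1 of ATF4 partners, transporters and tRNA synthetases, 0 of amino acid enzymes, XBP1 targets and heat shock genes, with 1 fall of amino acid enzymes and 0 falls of transporters, synthetases, ER chaperones, XBP1 targets and heat shock genes. Upper-quartile factors gave 1756 rises in all (30.6% of called genes, against 48.0% with TMM), 2 for ATF4 partners, 0 for amino acid enzymes, 2 for XBP1 targets and 1 for heat shock genes, with 2 falls of transporters and 8 of ER chaperones. The offsets gave 3 rises of sensors and 4 of heat shock genes, and 1 fall of amino acid enzymes, 0 of synthetases, 3 of ER chaperones and 3 of XBP1 targets. Sex as a covariate gave 0 rises of amino acid enzymes, 4 rises of heat shock genes, 2 falls of transporters and 3 of ER chaperones. No filter on low counts gave 3 falls of ER chaperones and 0 of heat shock genes, and DESeq2 gave 4 rises of heat shock genes. The replicate number as a block gave 2422 rises and 2701 falls in all, 1 fall of sensors (Eif2s1) and 0 of transporters. Same-numbered libraries correlated at -0.162, -0.0783 and 0.430 in their deviations from the group means, so the number was not taken as a pairing. No gene's direction reversed among called values.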

Other observations

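Immediate early genes gave the libraries an order that the groups do not share. Knockout 1 and control 3 were the lowest pair of libraries for all 10 of Fos, Fosb, Jun, Junb, Egr1, Ier2, Dusp1, Zfp36, Btg2 and Nr4a1, which was so for 2.51% of all genes tested. The same pair was lowest in Atf4, Atf3 and Ppp1r15a, and in no other member. Fos, a subunit of the AP-1 factor, measured 1593, 4308 and 3467 CPM in knockouts 1, 2 and 3, against 4897, 4191 and 2026 CPM in controls 1, 2 and 3. Nr4a1, an orphan nuclear receptor, measured 59.1, 353 and 255 CPM in knockouts 1, 2 and 3, against 949, 431 and 195 CPM in controls 1, 2 and 3. Whether time or handling during isolation differed between these mice is not given in the labels used here.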
